A study of Mus musculus with 60 samples.

Results

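Cells labelled 23-CATA were compared with cells labelled 23-Tet1 at day 6 of adipocyte differentiation, with 3 libraries of each, which are 6 of the 60 samples of the series. The libraries were chosen by population and day as their titles give them. Both populations, and another labelled 23-NC whose levels are given beside them, are C3H10T1/2 cells, a mouse mesenchymal line able to become fat cells when induced with hormones. The labels do not explain "23", "CATA" or "NC", nor which Tet1 sequence a population carries, or whether a population is 1 clone. They do not say whether replicates are separate cultures, so the p-values measure a spread between replicate libraries that may be technical. That spread was pooled for each gene over the 36 libraries (12 groups) of the fit, and not taken from the 6 compared libraries alone. In the 23-Tet1 libraries of day 6 the genotype tag carries a running number, and the titles were used. All 3 populations shared the treatment. The inducing medium held rosiglitazone (1 µM), T3 (1 nM), insulin (10 µg/ml), isobutylmethylxanthine (0.5 mM) and dexamethasone (1 µM), and after 48 h it was exchanged for medium with insulin at 5 µg/ml. Serum was 10% throughout.

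TET1, TET2 and TET3 oxidise 5-methylcytosine in DNA, which is a step towards the loss of the methyl mark. Fat cell formation runs through the early regulators CEBPB and CEBPD to PPARG and CEBPA. PPARG binds DNA together with RXRA and drives genes for lipid uptake, triglyceride assembly and lipid droplets. The comparison addresses how 2 populations with Tet1 RNA differ from each other after 6 days of differentiation. DNA methylation was not analysed here.

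Values are FPKM (fragments scaled to transcript length and to library size), and differences are on the log2(FPKM + 1) scale, 23-CATA minus 23-Tet1, with the standard error (SE) of the fit. A gene was called at an adjusted p under 0.05 over 12231 genes tested. At day 6, 8031 genes were called, 65.7% of those tested. Of these, 3903 were higher in 23-CATA (31.9%) and 4128 lower (33.8%). Calls of 1 log2 unit or more numbered 1134 (9.27%), 599 higher (4.90%) and 535 lower (4.37%). The libraries of both groups did not overlap for 9025 genes (73.8%). The median difference of all genes was -0.01, and replicates were close, with a median SD of 0.079 log2 units in 23-CATA and 0.073 in 23-Tet1. Summed FPKM ran from 672229 to 701888 in the 23-CATA libraries and from 577996 to 607692 in the 23-Tet1 libraries, with an estimated depth of 14.3 to 16.4 M fragments in 23-CATA and 13.6 to 17.2 M in 23-Tet1. With so large a background, a list of genes is read below by the share called, the size of the differences and its median.

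The defining genes of fat cells were abundant in both populations. Of the 25 adipocyte markers listed, 24 passed the filter on low values. Their FPKM summed to between 64226 and 65787 in 23-CATA, between 56339 and 64078 in 23-Tet1, and between 11866 and 13336 in 23-NC. Lep, the gene of leptin, did not pass in any population. Macrophage markers were at or near 0, except Cd68, a lysosomal protein, at 76.2 to 86.2 FPKM in 23-CATA and 74.7 to 78.6 FPKM in 23-Tet1. Ptprc and Tyrobp were listed at 0 in all 6 libraries. The 5 endothelial markers summed to 0.87 to 1.11 FPKM in 23-CATA and 0.14 to 0.28 FPKM in 23-Tet1, the 5 epithelial markers to 0.07 to 0.13 FPKM in 23-CATA and 0.48 to 1.17 FPKM in 23-Tet1, and the 5 skeletal muscle markers to at most 0.12 FPKM in 23-CATA and 0.04 FPKM in 23-Tet1.

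Tet1 RNA was present in both populations and slightly higher in 23-CATA. Tet1 was at 5.96, 5.75 and 6.24 FPKM in 23-CATA and at 4.48, 4.04 and 4.05 FPKM in 23-Tet1, and it was listed at 0 in the 3 libraries of 23-NC. The 2 populations did not overlap and differed by 0.43 ± 0.11 log2 units (adjusted p = 0.00137). Gene-level FPKM does not show which part of the transcript the reads cover. The other two TET genes were lower in 23-CATA. Tet2 was at 2.85, 2.42 and 3.13 FPKM in 23-CATA and at 8.58, 7.43 and 7.10 FPKM in 23-Tet1, a difference of -1.20 ± 0.16 (adjusted p = 3e-07). Tet3 was at 5.60, 4.70 and 5.56 FPKM in 23-CATA and at 16.3, 15.5 and 14.6 FPKM in 23-Tet1, a difference of -1.39 ± 0.15 (adjusted p = 3.79e-09). In 23-NC, Tet2 averaged 9.10 FPKM, near 23-Tet1, whereas Tet3 averaged 5.73 FPKM, near 23-CATA.

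Among 19 genes of DNA methylation and its removal, 6 were higher in 23-CATA (31.6%) and 10 lower (52.6%). All genes had 31.9% and 33.8%, and the median difference of the list was -0.30. Dnmt3a, which places methyl groups on unmethylated DNA, averaged 5.28 FPKM in 23-CATA and 12.4 FPKM in 23-Tet1 (-1.10 ± 0.11, adjusted p = 1.65e-09). Dnmt1, which copies the mark after replication, did not pass the test (0.04 ± 0.08, adjusted p = 0.693), while its partner Uhrf1 rose (0.74 ± 0.07, adjusted p = 1.05e-10). Mbd3, of the methyl-CpG-binding domain family, was higher (0.80 ± 0.12). Dnmt1 was chosen for its role after its value was seen. Gadd45a, a stress-induced growth arrest gene, had the largest difference of the list. It was at 97.2, 97.0 and 99.3 FPKM in 23-CATA, against 19.95, 22.8 and 20.3 FPKM in 23-Tet1 and a mean of 106 FPKM in 23-NC (2.17 ± 0.12, adjusted p = 1.36e-15).

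**Figure D1:**
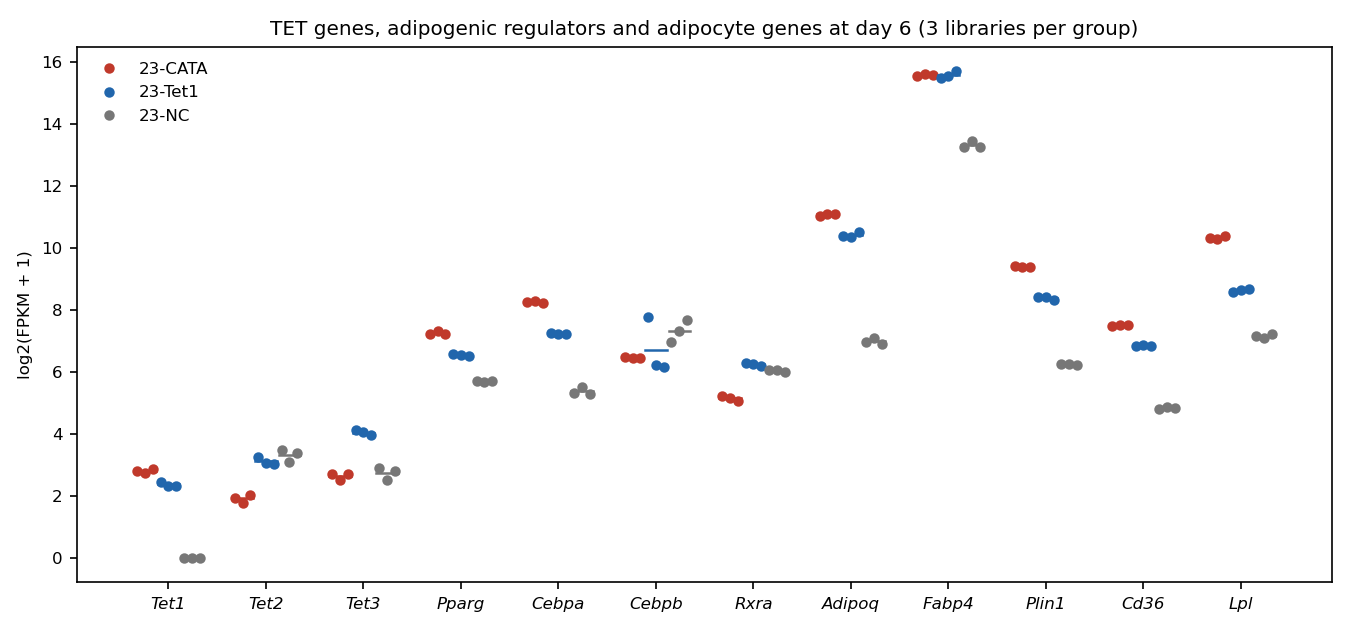
Levels at day 6 of 12 genes in 23-CATA, 23-Tet1 and 23-NC, as log2(FPKM + 1) on the y axis; points are libraries and bars are group means (3 libraries each). Lpl, Plin1 and Cebpa lie highest in 23-CATA, Rxra, Tet2 and Tet3 lie lower in 23-CATA than in 23-Tet1, Fabp4 overlaps between both, and 1 of the 3 libraries of 23-Tet1 stands apart for Cebpb.

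The regulators of fat cell formation were split. Pparg, the nuclear receptor that drives adipogenesis, was at 149, 160 and 149 FPKM in 23-CATA and at 93.6, 91.7 and 90.6 FPKM in 23-Tet1 (0.73 ± 0.08, adjusted p = 2.37e-09). Cebpa, which acts with it, was at 307, 308 and 295 FPKM in 23-CATA and at 152, 148 and 148 FPKM in 23-Tet1 (1.02 ± 0.08, adjusted p = 1.11e-11). Both were highest in 23-CATA and lowest in 23-NC, where they averaged 50.7 FPKM and 40.6 FPKM. Rxra, the DNA-binding partner of PPARG, went the other way. It was at 36.6, 34.5 and 32.6 FPKM in 23-CATA and at 77.4, 74.7 and 71.6 FPKM in 23-Tet1 (-1.09 ± 0.06, adjusted p = 1.05e-15), with 64.9 FPKM on average in 23-NC.

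Of 21 adipogenic transcription factors tested, 4 were higher and 11 lower in 23-CATA, against 31.9% and 33.8% of all genes. Their median was -0.27. Stat5a and Stat5b, signal transducers of growth hormone and prolactin, fell by 1.58 ± 0.06 and 1.03 ± 0.06 log2 units (adjusted p = 1.55e-19 and 1.02e-14), Stat5a to 21.8 FPKM in 23-CATA, against 67.5 FPKM in 23-Tet1 and 21.5 FPKM in 23-NC. Klf9, a glucocorticoid-responsive factor, fell by 1.30 ± 0.14. Ddit3, a stress-induced member of the CEBP family that restrains adipogenesis, rose by 1.18 ± 0.15 to 207, 219 and 196 FPKM in 23-CATA, against 82.9, 94.5 and 96.2 FPKM in 23-Tet1. Cebpb, the early regulator, was at 87.7, 85.6 and 85.5 FPKM in 23-CATA and at 217, 73.7 and 70.9 FPKM in 23-Tet1. The groups overlapped through the high first library of 23-Tet1, and the difference of -0.27 ± 0.42 did not pass (adjusted p = 0.583). Without replicate 1 of 23-Tet1 it was 0.25 and again did not pass (adjusted p = 0.624). The libraries left did not overlap, but the test used the spread pooled over all groups of the fit. Of 17 nuclear receptors, 5 were higher (29.4%) and 6 lower (35.3%), near the shares of all genes (median 0.03). Vdr, the vitamin D receptor, and Thra, a thyroid hormone receptor, were among the lower ones (-1.65 ± 0.08 and -1.01 ± 0.05), and Esrra, an oestrogen-related receptor active in mitochondrial gene control, was higher (0.49 ± 0.11).

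Fat cell genes moved in both directions. Of the 24 adipocyte markers tested, 13 were higher in 23-CATA (54.2%) and 7 lower (29.2%), against 31.9% and 33.8% of all genes, and the median difference was 0.40. Under quantile normalisation 11 were higher and 9 lower, with a median of 0.12. In bulk RNA, fewer cells of a type and less RNA per cell cannot be told apart. Lpl, the secreted lipase that frees fatty acids for uptake, was at 1277, 1259 and 1319 FPKM in 23-CATA and at 383, 398 and 409 FPKM in 23-Tet1, a ratio of means of 3.24 (1.69 ± 0.07, adjusted p = 5.4e-18). Cfd, the adipocyte-secreted protease adipsin, was at 466, 501 and 470 FPKM in 23-CATA and at 34.3, 33.8 and 34.2 FPKM in 23-Tet1, a ratio of 14.0 (3.77 ± 0.13, adjusted p = 2.73e-20). Gpd1, an enzyme that supplies glycerol phosphate for triglycerides, reached 2.76 times the mean of 23-Tet1. Smaller rises were seen for Adipoq, which encodes adiponectin (0.67 ± 0.09), for the lipid droplet coat gene Plin1 (1.02 ± 0.06) and for the fatty acid transporter Cd36 (0.65 ± 0.09).

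Fabp4, the fatty acid carrier of fat cells, was the most abundant of these and did not differ beyond its spread. It was at 48029.7, 49273 and 48385 FPKM in 23-CATA and at 45013, 47376 and 52717 FPKM in 23-Tet1 (0.01 ± 0.26, adjusted p = 0.98). The libraries of both groups overlapped, and 23-NC averaged 10184 FPKM. Lower in 23-CATA were Plin4, a lipid droplet coat protein (-0.79 ± 0.08), Car3, a carbonic anhydrase abundant in fat (-0.71 ± 0.10), and Adrb3, the fat cell adrenergic receptor (-0.55 ± 0.10). Each of these was lower in 23-NC than in both other populations, at 44.4, 2.03 and 0.67 FPKM on average.

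Lipid droplet genes were mostly higher in 23-CATA. Of 12 tested, 8 were higher and 3 lower, against 31.9% and 33.8% of all genes, with a median of 0.71. The share of lower calls was thus below that of all genes. Cidea, which fuses lipid droplets and marks brown fat, was at 129, 140 and 137 FPKM in 23-CATA and at 20.3, 22.9 and 22.8 FPKM in 23-Tet1 (2.57 ± 0.10, adjusted p = 5.14e-19). Its relative Cidec was lower in 23-CATA (-0.43 ± 0.09, adjusted p = 0.000256), a call that was lost with a pseudocount of 0.1 FPKM (adjusted p = 0.208). G0s2, an inhibitor of the triglyceride lipase ATGL, rose to 975.2, 1039 and 968 FPKM in 23-CATA, against 227, 249 and 273 FPKM in 23-Tet1 (1.99 ± 0.18). Bscl2, which encodes the droplet biogenesis protein seipin, rose by 1.99 ± 0.11.

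Synthesis and breakdown of fat moved gene by gene. Among 14 genes of fatty acid synthesis, 7 were higher and 2 lower, with a median of 0.18 that turned to -0.01 under quantile normalisation. The lower calls numbered 1 without replicate 2 or 3 of 23-CATA or replicate 1 or 2 of 23-Tet1. Scd1, a desaturase, rose to 3154, 2994 and 3236 FPKM in 23-CATA, against 1219, 1213 and 1206 FPKM in 23-Tet1 (1.37 ± 0.09, adjusted p = 1.07e-13), and Me1, a source of NADPH, rose by 1.29 ± 0.06. Fasn, the fatty acid synthase itself, did not pass (-0.21 ± 0.11, adjusted p = 0.0929), and the elongase Elovl6 fell by 0.98 ± 0.09. Of 11 triglyceride assembly genes, 7 were higher (63.6%) and 2 lower (18.2%), against the same 31.9% and 33.8% of all genes. Their median was 0.48, or 0.26 under quantile normalisation. Gk, a glycerol kinase, rose by 1.46 ± 0.09 and Lpin1, a phosphatidate phosphatase, fell by 0.82 ± 0.11.

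Of 13 lipolysis genes, 6 were higher and 6 lower, 46.2% each, against 31.9% and 33.8% of all genes. Their median was 0.05, or -0.21 under quantile normalisation. The receptors were divided. Hcar2, a receptor that restrains lipolysis, rose by 1.35 ± 0.07, while Adora1, an adenosine receptor with the same effect, fell by 1.62 ± 0.08. Pnpla2, which encodes ATGL, was at 1085, 1132 and 1088 FPKM in 23-CATA and at 1089, 1107.5 and 1008 FPKM in 23-Tet1, and did not pass (adjusted p = 0.619). Cholesterol synthesis genes differed little. Of 20, 3 were higher (15.0%) and 6 lower (30.0%), with a median of -0.09. Cyp51, an enzyme late in the pathway, fell by 1.38 ± 0.06. The higher calls of Hmgcs1 (0.24 ± 0.06) and of Insig1 (0.18 ± 0.05) turned in sign under quantile normalisation.

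Mitochondrial genes were higher in 23-CATA. All 32 genes of the citrate cycle and respiratory chain were tested and called higher, against 31.9% of all genes, with a median of 0.63. Under quantile normalisation 23 were called higher and 3 turned in sign, Idh3a and Dlst among them, with a median of 0.295, and under median-ratio scaling all 32 were called higher. The rises were moderate, and 3 of them reached 1 log2 unit. Cs, citrate synthase, was at 674, 687 and 702 FPKM in 23-CATA and at 407, 418 and 409 FPKM in 23-Tet1 (0.74 ± 0.04, adjusted p = 9.85e-15). The subunit gene Ndufv1 of complex I rose by 0.94 ± 0.10, Sdhb of complex II by 0.94 ± 0.10, Cyc1 of complex III by 0.93 ± 0.10 and Cox5a of complex IV by 0.94 ± 0.13. The 2 largest rises were in Cox8b and Cox7a1, subunits of complex IV that are found in muscle and brown fat. Cox8b was at 293, 261 and 256 FPKM in 23-CATA, against 28.8, 34.2 and 37.4 FPKM in 23-Tet1 (2.98 ± 0.22), and Cox7a1 at 79.3, 107 and 90.9 FPKM in 23-CATA, against 13.3, 15.4 and 13.7 FPKM in 23-Tet1 (2.62 ± 0.31). These examples other than Cs, Cox8b and Cox7a1 were chosen after their values were seen, as 1 per complex.

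Of 21 genes of fatty acid oxidation, 17 were higher in 23-CATA (81.0%) and 1 lower (4.8%), against 31.9% and 33.8% of all genes. Their median was 0.67. Quantile normalisation gave 14 higher and 4 lower and a median of 0.41, with a turned sign for 3 genes, Hadh and Eci1 among them. Cpt1b, the muscle and brown fat form of the enzyme that admits fatty acids to mitochondria, was at 54.7, 53.2 and 49.3 FPKM in 23-CATA and at 6.05, 6.10 and 5.60 FPKM in 23-Tet1, a ratio of 8.86 (2.95 ± 0.12, adjusted p = 8.32e-19). Etfb, an electron carrier subunit, rose by 1.46 ± 0.13 and the carnitine carrier Slc25a20 by 1.25 ± 0.08. Acadm, a medium-chain dehydrogenase, was lower (-0.25 ± 0.07, adjusted p = 0.00353).

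Genes that mark thermogenic fat were mostly higher in 23-CATA where they passed the filter. Of 17 listed, 10 passed, 7 of them higher and 3 lower, against 31.9% and 33.8% of all genes. Of the higher ones, 5 differed by 1 log2 unit or more, while the lowest difference was -0.94. Their median was 1.62, or 1.57 under quantile normalisation and 1.68 under median-ratio scaling. Elovl3, an elongase induced in brown fat by cold, was at 37.7, 40.8 and 34.8 FPKM in 23-CATA and at 4.28, 4.09 and 5.28 FPKM in 23-Tet1 (2.81 ± 0.09, adjusted p = 1.09e-21), and 23-NC averaged 0.13 FPKM. Fgf21, a hormone of fuel use, averaged 9.36 FPKM in 23-CATA and 0.80 FPKM in 23-Tet1. Fgf21 and the next genes were chosen for their roles after their values were seen. Ucp1, the uncoupling protein that defines brown fat, was at 0.05 FPKM or less in all 6 libraries, and Prdm16, Dio2 and Zic1 were at 0.02 FPKM or less. Tbx1, a marker of beige fat, fell by 0.94 ± 0.14 and Ppargc1b, a mitochondrial coactivator, by 0.46 ± 0.11.

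**Figure D2:**
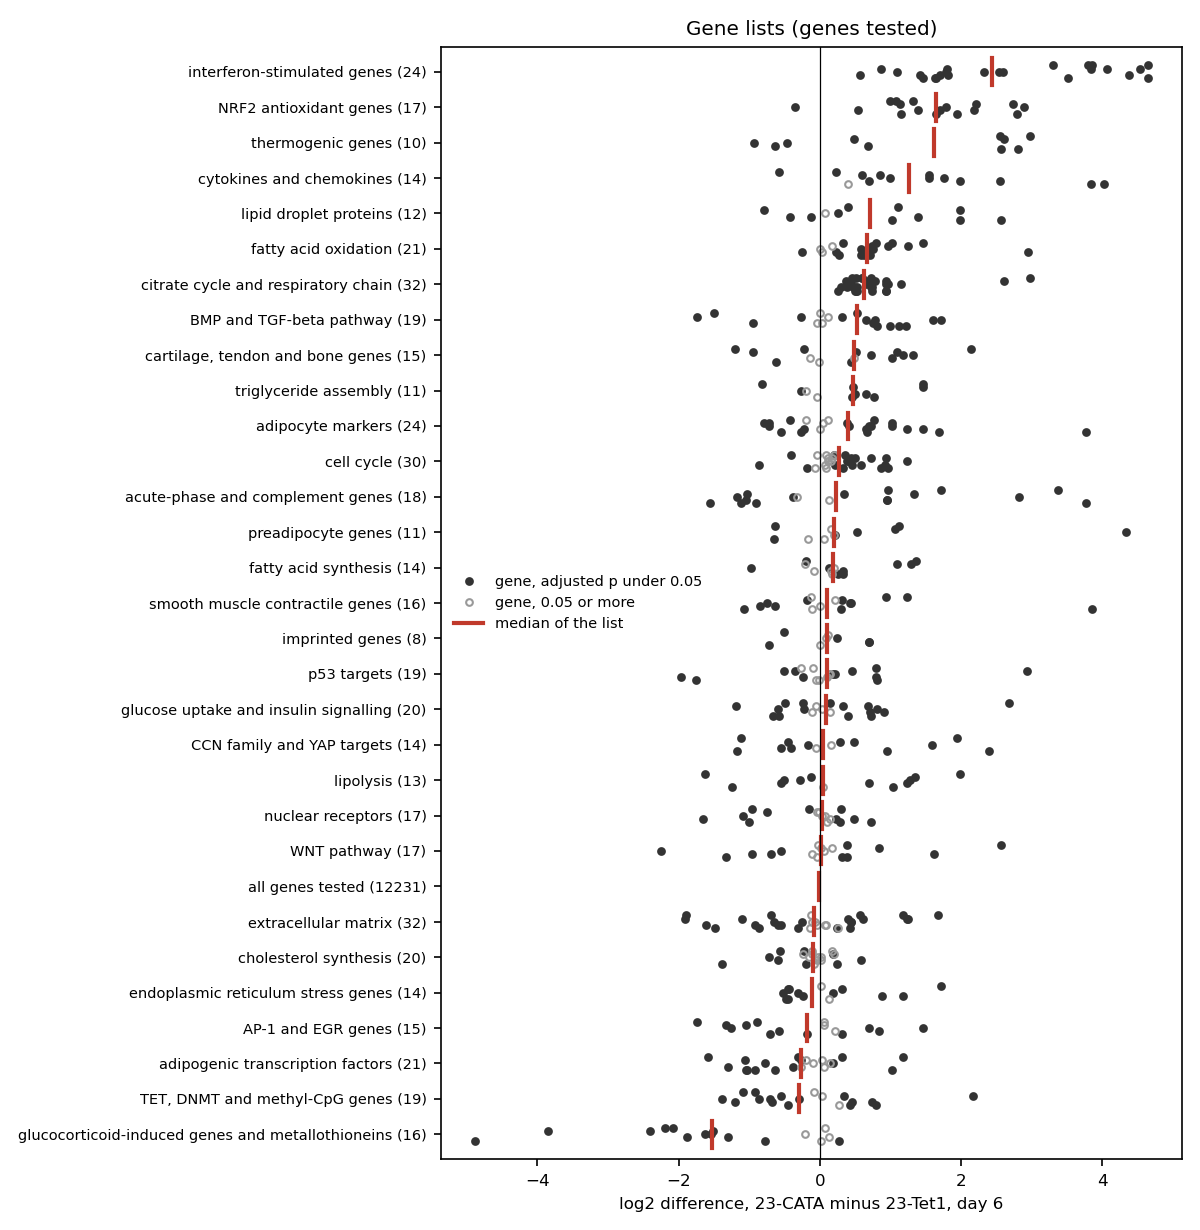
Differences at day 6 of the genes of each list with 5 or more genes tested, 23-CATA minus 23-Tet1 on the log2(FPKM + 1) scale; filled points were called, open points were not, red bars are medians, and the row of all genes shows its median alone. Interferon-stimulated genes lie highest with a median of 2.44, the citrate cycle and respiratory chain is tight around 0.63, and glucocorticoid-induced genes and metallothioneins lie lowest at -1.52.

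Interferon-stimulated genes had the highest median difference among the lists. Of 26 listed, 24 passed the filter, and all 24 were called higher in 23-CATA, 22 of them by 1 log2 unit or more, against 31.9% and 4.90% of all genes. Their median was 2.44, and under both scaling alternatives all 24 were again called higher. Isg15, a ubiquitin-like modifier, was at 259, 274 and 252 FPKM in 23-CATA and at 9.24, 9.17 and 9.87 FPKM in 23-Tet1, a ratio of 27.8 (4.65 ± 0.15, adjusted p = 3.55e-21). Ifit1, which binds viral RNA, was at 91.3, 92.4 and 93.9 FPKM in 23-CATA and at 3.31, 3.62 and 3.54 FPKM in 23-Tet1 (4.38 ± 0.08, adjusted p = 1.18e-26). Rtp4, a chaperone-like interferon target, averaged 116 FPKM in 23-CATA and 5.98 FPKM in 23-Tet1. The 23-NC means of Isg15, Ifit1 and Rtp4 were 7.79, 6.98 and 9.07 FPKM, close to 23-Tet1.

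Ifit3 (4.54 ± 0.12) and Ifit3b (4.30 ± 0.13), and likewise Oas1a with its relatives, are near-identical copies whose reads the counting may have split, so their separate values are uncertain. Oas1a was at 27.7, 29.1 and 24.9 FPKM in 23-CATA and at 0.04, 0.22 and 0.11 FPKM in 23-Tet1. Factors that carry the interferon signal rose too. Stat2 rose by 0.87 ± 0.08, Irf9, which joins it, by 1.81 ± 0.08, and Irf7, which amplifies the response, by 1.65 ± 0.10. Among the sensors of foreign RNA, Ddx58 rose by 1.41 ± 0.07, Ifih1 by 1.46 ± 0.07 and Dhx58 by 2.33 ± 0.07. Bst2, a membrane tether of viruses, was at 485, 522 and 533 FPKM in 23-CATA, against 32.6, 33.8 and 42.0 FPKM in 23-Tet1 and 162 FPKM on average in 23-NC. The factors, sensors and Bst2 were chosen for their roles after their values were seen.

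Interferon factors bind the interferon response element, searched here as GAAANNGAAA on both strands in the 250 bases before a RefSeq transcript start. The 4 windows shown were picked for holding a match, and of the listed genes with one they had the largest differences. That each holds a match was thus fixed by the choice. Sequences are from RefSeq's table for GRCm38.p6, the deposited data's build mm10, and capitals mark the matches, overlapping ones joined. Isg15 is at chr4:156200819-156201068 (minus strand), Oas1a at chr5:120907526-120907775 (minus strand), Ifit3 at chr19:34583279-34583528 (plus strand) and Ifit1 at chr19:34640639-34640888 (plus strand). The Ifit3 window lies inside the span annotated for the gene, which begins at base 34583119, and the Oas1a window reaches into that of Oas1a, which ends at base 120907544.
Isg15: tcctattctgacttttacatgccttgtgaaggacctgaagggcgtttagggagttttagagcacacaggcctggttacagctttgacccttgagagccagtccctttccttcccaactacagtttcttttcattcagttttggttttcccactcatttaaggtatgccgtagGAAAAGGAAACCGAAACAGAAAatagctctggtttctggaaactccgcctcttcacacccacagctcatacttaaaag
Oas1a: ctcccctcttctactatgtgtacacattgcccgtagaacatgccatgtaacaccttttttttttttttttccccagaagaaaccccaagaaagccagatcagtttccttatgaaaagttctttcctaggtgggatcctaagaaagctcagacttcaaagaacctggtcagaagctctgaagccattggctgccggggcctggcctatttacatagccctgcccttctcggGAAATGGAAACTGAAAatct
Ifit3: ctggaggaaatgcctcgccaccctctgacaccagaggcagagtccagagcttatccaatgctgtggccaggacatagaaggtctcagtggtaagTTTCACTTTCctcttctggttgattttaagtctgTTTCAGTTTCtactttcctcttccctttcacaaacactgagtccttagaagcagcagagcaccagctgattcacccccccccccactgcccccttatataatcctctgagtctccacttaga
Ifit1: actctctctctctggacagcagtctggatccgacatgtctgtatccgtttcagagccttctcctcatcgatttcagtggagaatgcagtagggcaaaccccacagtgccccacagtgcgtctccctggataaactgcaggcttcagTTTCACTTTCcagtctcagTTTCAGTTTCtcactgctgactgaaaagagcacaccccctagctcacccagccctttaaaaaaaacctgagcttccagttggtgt
Isg15 holds 3 overlapping matches, and the other three promoters hold 2 each. Of the 17 tested genes of the list with a promoter in the table, 8 held the motif (Isg15, Ifit1, Ifit3, Stat2, Oas1a, Bst2, Gbp2 and Gbp3). Of the 9567 promoters of all genes tested, 253 held it, or 2.65%. A comparison of the list with all promoters is void, because 17 of its 24 tested genes, fewer than 80%, had a window. A match is a description of these letters and not a measured binding site.

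The difference in interferon-stimulated genes was not steady over the days. At day 0, before induction, 23 of the 24 were higher in 23-CATA and none lower, with a median of 3.31, against 32.9% higher among all genes. At day 2, 14 were higher and 5 lower (30.3% and 37.1% of all genes), and at day 4, 6 were higher and 13 lower (27.6% and 46.6% of all genes), where scaling altered the split to 9 higher and 9 lower (quantile) or 9 higher and 10 lower (median-ratio). Isg15 in 23-CATA averaged 155, 13.1, 21.03 and 262 FPKM at days 0, 2, 4 and 6. In 23-Tet1 it averaged 8.26, 3.57, 17.1 and 9.43 FPKM, and in 23-NC 31.9, 12.6, 3.32 and 7.79 FPKM. In 23-CATA the level was thus low on both days after induction and high before it and at day 6.

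Cytokine and chemokine genes were mostly higher as well. Of 14 tested among 23 listed, 12 were higher in 23-CATA and 1 lower, against 31.9% and 33.8% of all genes, with a median of 1.27. Cxcl1, which attracts neutrophils, was at 185, 188 and 188 FPKM in 23-CATA and at 9.14, 11.5 and 11.01 FPKM in 23-Tet1 (4.03 ± 0.10, adjusted p = 5.15e-24). Ccl2, which attracts monocytes, was at 37.3, 46.7 and 41.0 FPKM in 23-CATA and at 1.55, 2.35 and 2.05 FPKM in 23-Tet1 (3.84 ± 0.20). Tnf, Il1b and Il1a were at 0.21 FPKM or less in all 6 libraries and did not pass the filter. Over the days the direction turned. At day 0 all 14 were higher in 23-CATA (median 2.70), against 32.9% of all genes. At day 2 there were 5 higher (35.7%) and 4 lower (28.6%), near the 30.3% and 37.1% of all genes (median 0.07). At day 4 none were higher and 13 lower (median -2.18), against 27.6% and 46.6% of all genes, whose median was -0.16.

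Of 18 acute-phase and complement genes, 9 were higher and 7 lower (median 0.23), against 31.9% and 33.8% of all genes. The share of lower calls was thus near that of all genes. Cfb, a complement protease, rose by 3.38 ± 0.08 and the pattern-recognition gene Ptx3 by 2.83 ± 0.08, whereas the haemoglobin scavenger Hp fell by 1.12 ± 0.15 and complement C3 by 1.18 ± 0.09. Hp was at 1452, 1565 and 1441 FPKM in 23-CATA and at 3063, 3282 and 3327 FPKM in 23-Tet1. Among the 12 largest falls was Orm3 (-3.27 ± 0.14), which is close in sequence to Orm1 and Orm2, so that its own value is uncertain.

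Targets of NRF2, the transcription factor of the oxidative stress response, were higher in 23-CATA than in 23-Tet1 nearly throughout. The FPKM of the list summed to 5053 to 5351 in 23-CATA, 1840 to 1964 in 23-Tet1 and 4135 to 4378 in 23-NC, so 23-Tet1 was the lowest. All 17 listed genes were tested. Of these, 16 were higher (94.1%), 15 of them by 1 log2 unit or more, against 31.9% and 4.90% of all genes. The lower call was 1 (5.9%), against 33.8% of all genes. Their median was 1.65, with no turned sign under either scaling. Srxn1, which repairs oxidised peroxiredoxins, was at 213, 218 and 217.5 FPKM in 23-CATA and at 29.5, 31.6 and 30.0 FPKM in 23-Tet1 (2.79 ± 0.06, adjusted p = 2.32e-25). Nqo1, a quinone reductase, rose by 1.95 ± 0.08 and Hmox1, which degrades haem, by 1.71 ± 0.18. Hmox1 was at 575, 591 and 660 FPKM in 23-CATA and 183, 190 and 183 FPKM in 23-Tet1, and it was highest in 23-NC at 1622 FPKM on average. The subunits of the enzyme that starts glutathione synthesis were divided. Gclm was at 60.8, 61.9 and 55.1 FPKM in 23-CATA and at 13.1, 11.2 and 11.6 FPKM in 23-Tet1 (2.22 ± 0.12, adjusted p = 4.83e-16), and Gclc was lower at 21.6, 20.95 and 20.4 FPKM in 23-CATA, against 29.7, 25.9 and 25.9 FPKM in 23-Tet1 (-0.35 ± 0.12, adjusted p = 0.0117). The Gclc call was lost without replicate 1 of 23-Tet1 (adjusted p = 0.0647). Nqo1, Hmox1 and Gclm were chosen after their values were seen.

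Gsta1 (2.90 ± 0.24) and Gsta2 (2.74 ± 0.13), and Gstp2 (4.65 ± 0.18) with its copy Gstp1 (1.78 ± 0.12), are near-identical pairs of glutathione transferases, and their separate values are uncertain. The antioxidant response element bound by NRF2, searched as TGACNNNGC on both strands, was found in 4 of 14 promoters of the list (Gclm, Gsta3, Prdx1 and G6pdx) and in 12.2% of all 9567, which is not compared, since 78.2% of all genes tested had a window. The promoter of Gclm at chr3:122245307-122245556 (GRCm38.p6, plus strand) is shown because it carries 1 match and the subunits were divided.
Gclm: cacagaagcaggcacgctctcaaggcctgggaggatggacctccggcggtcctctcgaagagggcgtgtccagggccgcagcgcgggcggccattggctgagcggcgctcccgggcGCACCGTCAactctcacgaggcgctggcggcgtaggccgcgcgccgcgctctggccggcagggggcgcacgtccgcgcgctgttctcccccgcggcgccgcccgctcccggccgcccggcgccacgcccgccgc

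Glucocorticoid-induced genes and metallothioneins were the list with the lowest median. All 16 listed were tested, 11 were lower in 23-CATA, 10 of them by 1 log2 unit or more, and 1 was higher, with a median of -1.52, against 33.8% lower and 4.37% lower by 1 log2 unit among all genes. Dexamethasone, a synthetic glucocorticoid, was part of the inducing medium exchanged at 48 h. Fkbp5, a chaperone of the glucocorticoid receptor and one of its strongest targets, was at 10.9, 11.3 and 11.6 FPKM in 23-CATA and at 375, 358 and 351 FPKM in 23-Tet1, with 315 FPKM on average in 23-NC (-4.89 ± 0.06, adjusted p = 1.03e-30). The 23-Tet1 mean was 32.2 times that of 23-CATA. Errfi1, an inhibitor of the EGF receptor, was at 15.9, 14.9 and 14.4 FPKM in 23-CATA and at 226, 231 and 230 FPKM in 23-Tet1 (-3.84 ± 0.06, adjusted p = 3.67e-28). Zbtb16, a zinc finger repressor, fell by 2.41 ± 0.08, the kinase gene Sgk1 by 2.08 ± 0.05 and Tsc22d3, which encodes the anti-inflammatory protein GILZ, by 1.88 ± 0.12. The zinc-binding metallothioneins Mt1 and Mt2 fell by 1.62 ± 0.12 and 1.51 ± 0.12, Mt1 to 1033, 1121 and 1054 FPKM in 23-CATA, against 3186, 3344 and 3340 FPKM in 23-Tet1.

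Nr3c1, which encodes the glucocorticoid receptor itself, was at 25.03, 24.8 and 27.9 FPKM in 23-CATA and at 23.9, 23.95 and 25.95 FPKM in 23-Tet1, and did not pass (0.07 ± 0.10, adjusted p = 0.546). Dusp1 and Pdk4 did not pass either (0.02 ± 0.07 and -0.21 ± 0.11, adjusted p = 0.818 and 0.103). Hsd11b1, which regenerates active glucocorticoid within the cell, was the 1 higher call (0.28 ± 0.10, adjusted p = 0.0193). Its sign turned under quantile normalisation, and the call was lost without replicate 2 of 23-CATA or replicate 1 or 2 of 23-Tet1. Sgk1, Tsc22d3, the metallothioneins, Nr3c1, Dusp1 and Pdk4 were chosen after their values were seen. The glucocorticoid response element, searched as GNACANNNTGTNC on both strands, was found in 1 of 12 promoters of the list (Mt1) and in 28 of 9567 (0.293%), and no match says only that these letters are not in the window. This comparison is void as well, because 12 of 16 tested genes had a window.

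The difference in glucocorticoid-induced genes turned between day 0 and day 6. At day 0, 12 of the 16 were higher in 23-CATA and 3 lower, against 32.9% and 31.3% of all genes. At day 2 there were 9 higher calls and 6 lower ones (30.3% and 37.1% of all genes). At day 4 there were 4 higher and 9 lower, not far from the 27.6% and 46.6% of all genes. Scaling altered the day 4 split to 6 higher and 5 lower (median-ratio) or 4 higher and 11 lower (quantile). Fkbp5 in 23-CATA averaged 2.77, 364, 210 and 11.2 FPKM at days 0, 2, 4 and 6. In 23-Tet1 it averaged 8.11, 151, 255 and 361.5 FPKM, and in 23-NC 3.00, 396, 597 and 315 FPKM. In all 3 populations it was thus far above day 0 at day 2, and at day 6 it was above 300 FPKM in 23-Tet1 and 23-NC but not in 23-CATA.

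**Figure D3:**
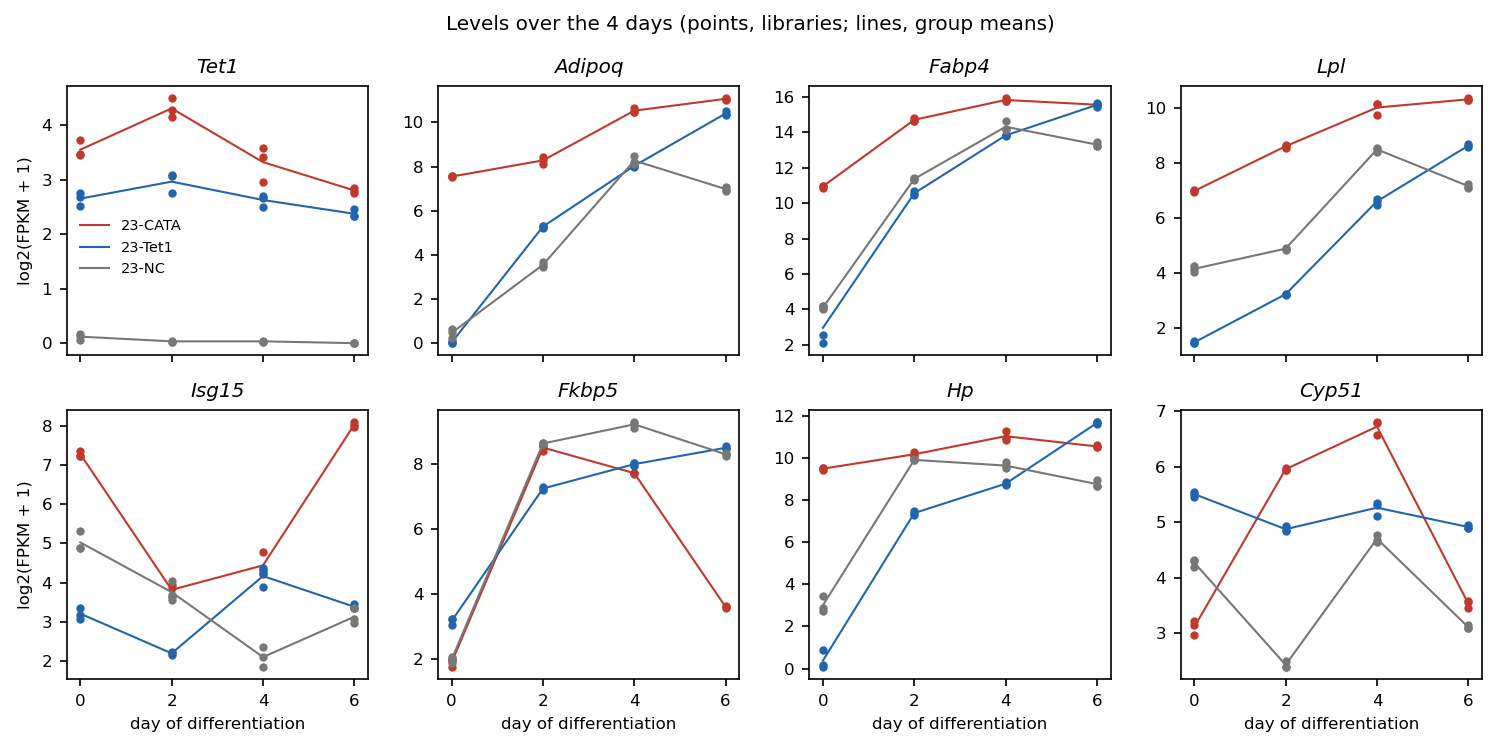
Levels of 8 genes over days 0, 2, 4 and 6 of differentiation in 23-CATA, 23-Tet1 and 23-NC, as log2(FPKM + 1); points are libraries and lines join group means. Adipoq, Fabp4, Lpl and Hp are already high at day 0 in 23-CATA, Isg15 is high at days 0 and 6 in 23-CATA, and Fkbp5 falls back by day 6 in 23-CATA while it stays high in 23-Tet1 and 23-NC.

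The 12 largest rises in 23-CATA, by the rule for named genes, were Sncg, Slpi, Chchd10, Isg15, Gstp2, Oas1a, Ndufa4l2, Ifit3, Ifit1, Ly6a, Ifit3b and Rtp4, between 6.30 and 4.06 log2 units. Sncg, the synuclein of nerve and fat, was at 194, 204 and 212 FPKM in 23-CATA and at 1.25, 2.41 and 1.25 FPKM in 23-Tet1 (6.30 ± 0.17, adjusted p = 5.86e-23). Slpi, a secreted protease inhibitor, was at 166, 184 and 145 FPKM in 23-CATA and at 3.49, 2.69 and 3.44 FPKM in 23-Tet1. Chchd10, a mitochondrial protein of cristae, was at 125, 128 and 108 FPKM in 23-CATA and at 2.61, 3.63 and 2.67 FPKM in 23-Tet1. Ndufa4l2, a hypoxia-induced protein related to a complex IV subunit, averaged 26.8 FPKM in 23-CATA and 0.16 FPKM in 23-Tet1. Ly6a, which encodes the progenitor surface protein SCA-1 and responds to interferon, was at 763, 831 and 642 FPKM in 23-CATA and at 32.8, 35.5 and 38.7 FPKM in 23-Tet1, with 244 FPKM on average in 23-NC. Sncg, Chchd10 and Ndufa4l2 were low in 23-NC as well, at means of 1.05, 1.22 and 0.13 FPKM, while Slpi was intermediate at 43.9 FPKM.

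The 12 largest falls lay between -4.89 and -3.27, and among them were Fkbp5, Cyp2e1, Tff3, Agt, Map7d2, Errfi1, Arl4d, Mertk, Serpina3m, Timp4 and Orm3. Cyp2e1, a cytochrome P450 of ethanol and fatty acid oxidation, was at 5.18, 5.57 and 5.65 FPKM in 23-CATA and at 133, 131 and 135 FPKM in 23-Tet1. It was low in 23-NC, with a mean of 3.42 FPKM, so its level in 23-Tet1 stood apart from both other populations. Agt, the angiotensin precursor secreted by fat, was at 149, 156 and 159 FPKM in 23-CATA and at 2536, 2625 and 2494 FPKM in 23-Tet1, with 1096 FPKM on average in 23-NC (-4.03 ± 0.14). Mertk, a receptor for uptake of dying cells, Serpina3m, a serine protease inhibitor gene with close relatives, and Arl4d, a small GTPase gene, were low in 23-CATA against both others. Mertk averaged 2.08 FPKM in 23-CATA, 33.8 FPKM in 23-Tet1 and 28.5 FPKM in 23-NC. Timp4, an inhibitor of matrix proteases, averaged 0.34 FPKM in 23-CATA, 12.7 FPKM in 23-Tet1 and 1.55 FPKM in 23-NC. Tff3, a mucosal peptide, was listed at 0 in 2 libraries of 23-CATA and at 0.40 FPKM in the other, against 18.6, 22.7 and 22.4 FPKM in 23-Tet1.

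**Figure D4:**
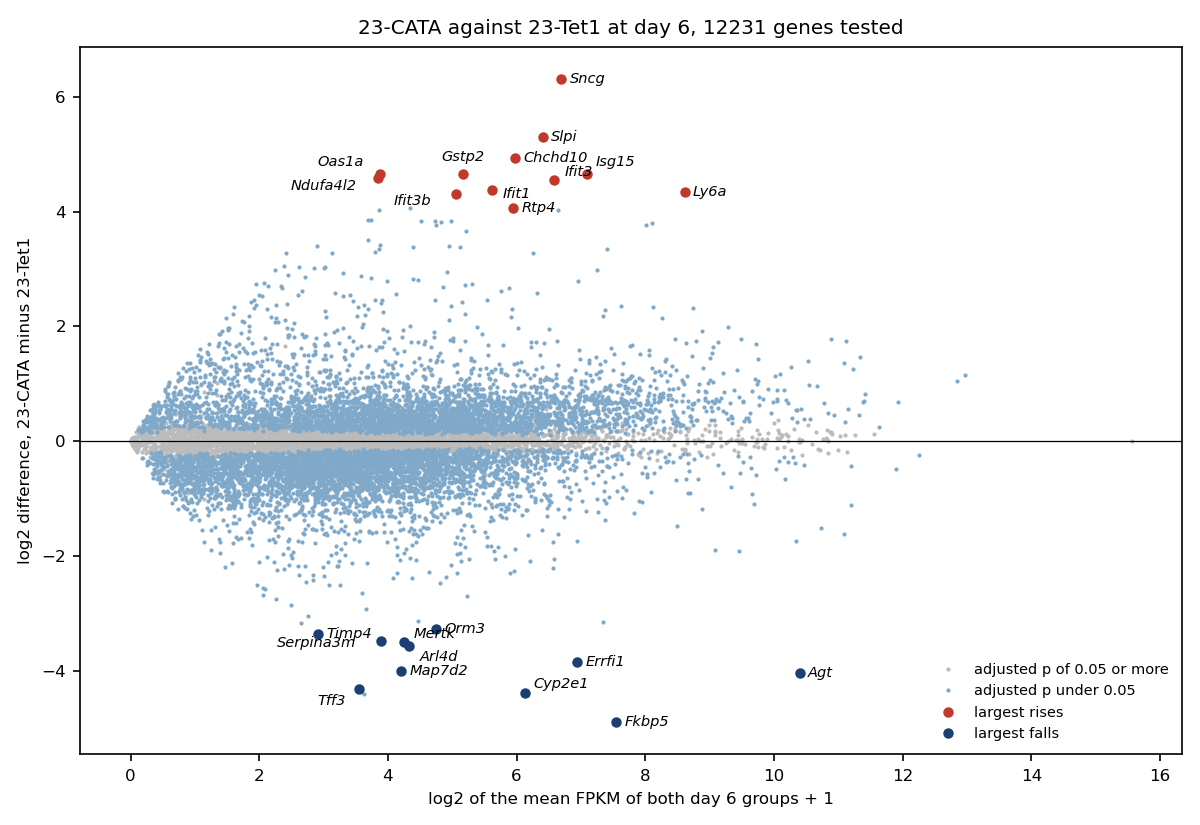
Difference at day 6 (23-CATA minus 23-Tet1, y axis, log2 units) against mean level (x axis, log2 of FPKM + 1) for 12231 genes; grey points were not called, and genes among the 12 largest rises and the 12 largest falls are named. The largest rise is Sncg at 6.30 and the largest fall Fkbp5 at -4.89, while Agt is the most abundant of those named.

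Outside fat metabolism, several lists were called at shares near those of all genes, 31.9% higher and 33.8% lower, and are given for their members. Of 32 extracellular matrix genes tested, 11 were higher (34.4%) and 13 lower (40.6%) in 23-CATA (median -0.09). The basement membrane collagen Col4a1 was at 242, 225 and 222 FPKM in 23-CATA and at 900.4, 845 and 828 FPKM in 23-Tet1 (-1.90 ± 0.10, adjusted p = 2.16e-16), Col6a3 fell by 1.91 ± 0.13 and the collagen crosslinking enzyme gene Lox by 1.61 ± 0.09. Higher were the proteoglycan gene Dcn (1.68 ± 0.08) and the collagen gene Col15a1 (1.25 ± 0.10). Of 16 smooth muscle contractile genes, 7 were higher and 5 lower (median 0.11), led by Acta2, smooth muscle actin, at 21.8, 25.4 and 24.8 FPKM in 23-CATA and 0.61, 0.74 and 0.81 FPKM in 23-Tet1. Of 14 CCN family and YAP target genes, 6 were higher and 6 lower (median 0.05), with Ctgf, a matricellular growth factor, higher by 2.39 ± 0.09 and Axl, a receptor kinase, lower by 1.11 ± 0.07.

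Cell cycle genes were modestly higher, with 17 higher (56.7%) and 3 lower (10.0%) of 30, against 31.9% and 33.8% of all genes. Their median was 0.27. Ccnd1, the cyclin of early G1, rose by 1.23 ± 0.05, while the proliferation marker Mki67 was at 4.07, 4.10 and 4.72 FPKM in 23-CATA and at 4.55, 4.85 and 4.21 FPKM in 23-Tet1 and did not pass (adjusted p = 0.67). Of 19 targets of p53, 7 were higher (36.8%) and 5 lower (26.3%), near the shares of all genes (median 0.10), with 3 lower without replicate 2 of 23-CATA. The stress cytokine Gdf15 rose by 2.94 ± 0.20, Sesn1, a brake on growth signalling, fell by 1.97 ± 0.06, and the arrest gene Cdkn1a did not pass (adjusted p = 0.414). Of 14 endoplasmic reticulum stress genes, 5 were higher and 7 lower (median -0.11), with 3 higher without replicate 2 of 23-CATA. Trib3, a pseudokinase induced by stress, rose by 1.72 ± 0.12 and Asns, which makes asparagine, by 0.87 ± 0.06, whereas the chaperone Hspa5 fell by 0.45 ± 0.06.

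Signalling genes gave smaller sets. Of 19 BMP and TGF-beta pathway genes tested, 11 were higher (57.9%) and 4 lower (21.1%), against 31.9% and 33.8% of all genes (median 0.53). Among them were the ligand gene Bmp4 (1.21 ± 0.09) and the BMP antagonist gene Chrdl1 (1.72 ± 0.12), both higher. The activin antagonist gene Fst was lower (-1.50 ± 0.08). Of 17 WNT pathway genes tested among 36 listed, 6 were higher (35.3%) and 5 lower (29.4%), near the shares of all genes (median 0.02). Rspo2, which strengthens WNT signalling, averaged 28.7 FPKM in 23-CATA and 4.04 FPKM in 23-Tet1 (2.56 ± 0.07), and Lef1, a nuclear effector, averaged 0.67 FPKM in 23-CATA and 6.97 FPKM in 23-Tet1 (-2.24 ± 0.09), so the largest differences of the list lay in opposite directions. Of 15 AP-1 and EGR genes, 4 were higher (26.7%) and 8 lower (53.3%), with a median of -0.18. Egr1, an immediate early gene, was lower by 1.26 ± 0.07 and Ier3 higher by 1.46 ± 0.08. Of 20 genes of glucose uptake and insulin signalling, 9 were higher (45.0%) and 7 lower (35.0%). Their median was 0.09, or -0.07 under quantile normalisation. Ldhb, a lactate dehydrogenase, was at 93.7, 107 and 103 FPKM in 23-CATA and at 14.9, 13.4 and 16.9 FPKM in 23-Tet1 (2.68 ± 0.11), while Pik3r1, a subunit of PI3-kinase, fell by 1.19 ± 0.08.

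Of 15 cartilage, tendon and bone genes tested, 8 were higher (53.3%) and 4 lower (26.7%), against 31.9% and 33.8% of all genes (median 0.48). They were led by Ptn, a heparin-binding growth factor gene (2.14 ± 0.09), and by Comp, a cartilage matrix gene, in the other direction (-1.20 ± 0.14). Of 11 preadipocyte genes, 5 were higher (45.5%) and 2 lower (18.2%), with a median of 0.21. Prrx1, a mesenchymal transcription factor gene, rose by 1.07 ± 0.09, and Pdgfra, a receptor of fat progenitors, fell by 0.65 ± 0.11. Of 8 imprinted genes tested among 24 listed, 3 were higher and 2 lower (median 0.10), and Dlk1, an imprinted inhibitor of adipogenesis, was listed at 0 in all 6 libraries.

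CpG sites are where DNA is methylated, and promoters are therefore described by their CG dinucleotides. RefSeq windows of 300 bases, from 250 before to 50 after the start, were matched by symbol for 9567 of the 12231 genes tested (78.2%), including 444 of the 599 genes higher and 404 of the 535 genes lower by 1 log2 unit or more. A comparison of CpG content between these sets is void, because fewer than 80% of the members of each had a window, and it is not given. For Sncg and Fkbp5, the largest rise and fall, the 250 bases before the start are shown with each CG in capitals (GRCm38.p6, minus strand). Sncg is at chr14:34374670-34374919 with 7 CG and Fkbp5 at chr17:28486150-28486399 with 23. These counts describe single genes and not rises or falls as sets. Among other large falls, the 300-base windows of Orm3, Agt and Map7d2 held 0, 1 and 40 CG.
Sncg: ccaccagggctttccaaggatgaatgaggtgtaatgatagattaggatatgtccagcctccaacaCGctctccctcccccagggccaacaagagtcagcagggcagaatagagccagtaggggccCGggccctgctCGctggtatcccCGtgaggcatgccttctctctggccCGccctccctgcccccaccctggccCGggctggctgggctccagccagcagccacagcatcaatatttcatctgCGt
Fkbp5: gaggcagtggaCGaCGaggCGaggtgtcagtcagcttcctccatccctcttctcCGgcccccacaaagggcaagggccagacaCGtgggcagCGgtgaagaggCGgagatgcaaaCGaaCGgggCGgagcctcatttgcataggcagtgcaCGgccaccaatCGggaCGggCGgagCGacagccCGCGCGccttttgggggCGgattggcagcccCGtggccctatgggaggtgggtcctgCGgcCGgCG

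The day 6 difference was set against that of day 0, to ask how the populations diverged during differentiation. At day 0, 7850 genes were called (64.2%), at day 2, 8241 (67.4%), and at day 4, 9073 (74.2%). At day 4 the median of all genes was -0.16, and the share of calls that were higher was 37.2%, or 46.1% under quantile and 53.6% under median-ratio scaling. Fat cell genes were already present in uninduced 23-CATA. Fabp4 averaged 1985 FPKM at day 0 in 23-CATA, 8.54 FPKM in 23-Tet1 and 16.1 FPKM in 23-NC, and Adipoq averaged 186 FPKM in 23-CATA, 0.02 FPKM in 23-Tet1 and 0.39 FPKM in 23-NC. At day 0, 23 of the 24 adipocyte markers were higher in 23-CATA, each by 1 log2 unit or more, against 8.63% of all genes, with a median of 3.28. The median was 3.17 at day 2, 1.76 at day 4 and 0.40 at day 6, so the 2 populations drew together for these genes over the course. Markers of other cell types differed at day 0 as well. The 7 macrophage markers summed to 35.4 to 36.2 FPKM in 23-CATA and 1.32 to 2.26 FPKM in 23-Tet1, of which Cd68 averaged 32.3 FPKM in 23-CATA and 1.38 FPKM in 23-Tet1, and Ptprc, Tyrobp, Adgre1 and Itgam were listed at 0 in 23-CATA. The 5 epithelial markers summed to a median of 1.46 FPKM in 23-CATA, with at most 1.79 FPKM, and of 12.2 FPKM in 23-Tet1, with at most 12.7 FPKM, and the keratin gene Krt14 averaged 0.07 FPKM in 23-CATA and 9.15 FPKM in 23-Tet1. Their part in the day 0 differences was not tested. The day 6 minus day 0 difference was tested in the same fit, and 7961 genes were called, 65.1% of those tested, with 30.3% higher and 34.8% lower. All 24 adipocyte markers were called lower in it, and 22 were under either scaling, with a turned sign for Pck1 under quantile normalisation.

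Other lists began from the opposite side. At day 0, 20 of 20 cholesterol synthesis genes and 29 of 30 cell cycle genes were lower in 23-CATA (31.3% of all genes), with medians of -1.51 and -0.99. The median of the cholesterol synthesis genes was -0.89 at day 2, -0.11 at day 4 and -0.09 at day 6. That of the cell cycle genes was 0.19 at day 2, with 14 higher and 8 lower (30.3% and 37.1% of all genes). It was -0.66 at day 4, with 2 higher and 25 lower (27.6% and 46.6% of all genes). At day 6 it was 0.27, so it crossed and fell back in between. The day 6 minus day 0 difference was called higher for 20 cholesterol synthesis genes and 29 cell cycle genes, in either scaling for at least as many. Cyp51 averaged 7.65 FPKM in 23-CATA at day 0 and 44.4 FPKM in 23-Tet1, and at day 6 10.6 FPKM in 23-CATA and 29.1 FPKM in 23-Tet1. At days 2 and 4 it was higher in 23-CATA, by 1.08 ± 0.06 and 1.46 ± 0.06. The citrate cycle and respiratory chain genes followed another course. At day 0, 5 were higher and 9 lower (median -0.03), against 32.9% and 31.3% of all genes. At days 2 and 4 all 32 were higher, with medians of 1.21 and 1.48, and at day 6 all 32 were higher with a median of 0.63.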

How the data were processed

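RNA was sequenced from C3H10T1/2 populations, and reads were aligned with STAR 2.4.1a to mm10 and quantified with RSEM, per the submitters' processing notes. The authors deposited FPKM per gene, with no counts, for the 36 libraries (12 groups of 3) used here. The library kit, per the labels' protocols, does not mark strand, so overlapping genes on opposite strands cannot be told apart. Genes with at least 1 FPKM in at least 3 libraries were tested, 12231 of 24982. Values were taken as log2(FPKM + 1), which understates the change of low genes, and fitted for all 12 groups together with limma 3.58.1 in R 4.3.3 (lmFit and eBayes with a trend, two-sided). P-values were adjusted by the Benjamini-Hochberg method over all genes tested. Differences are 23-CATA minus 23-Tet1, and the day 6 minus day 0 difference is an interaction contrast of the same fit. A ratio is of mean FPKM. The fit was tested on simulated data. Depth is an estimate, from the steps between low FPKM values over 3330 single-transcript genes.

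Named genes were 12 set genes, the 12 largest rises and 12 largest falls among called genes whose groups do not overlap and whose higher mean is at least 5 FPKM, up to 3 members of each of 34 gene lists in each direction by the same criteria, and the 6 largest interaction differences each way. Some genes the rule names are not reported here. Genes named outside this rule were chosen for their roles after their values were seen. The comparison, the lists and the rule were chosen with earlier results of these data known. Replicate numbers did not pair the libraries, since the residual correlations of same-numbered libraries at day 6 were 0.042, 0.014 and -0.036. The fit was repeated with each library left out, with the compared groups alone, and with the replicate block in the compared groups alone. It was also repeated under median-ratio scaling, under quantile normalisation, without the filter and with 0.1 FPKM as pseudocount. Among the deposited symbols, 26 had turned into dates, and mitochondrially encoded genes were not analysed here. Promoter sequences are from RefSeq (GRCm38.p6), matched by symbol at the first listed start. Tables and figures were made in Python 3.11.15 with matplotlib 3.10.9, pandas 2.3.3, scipy 1.17.1 and numpy 2.4.6.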

Additional observations from a re-analysis of the deposited data

Results flagged for a closer look

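The difference between 23-CATA and 23-Tet1 was not the same at day 6 as at day 0. Tested as an interaction in limma, the change of the difference was called for 7961 genes. Values below are this change, the day 6 difference minus the day 0 difference on the log2(FPKM + 1) scale, for the 6 largest each way, whose adjusted p lay between 9.59e-30 and 0.000207.

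The largest falls were genes already higher in 23-CATA than in 23-Tet1 before induction. Hp, the haemoglobin scavenger haptoglobin, had -10.22, with 715 FPKM in 23-CATA and 0.35 FPKM in 23-Tet1 at day 0, and 1486 FPKM in 23-CATA and 3224 FPKM in 23-Tet1 at day 6. Complement C3 had -9.30, with 483 FPKM in 23-CATA and 0.74 FPKM in 23-Tet1 at day 0. In 23-NC, Hp averaged 7.23 FPKM and C3 413 FPKM at day 0. Wfdc21, an acute-phase protein gene, had -8.09 and Fabp4 had -7.99, and neither passed at day 6 (adjusted p = 0.214 and 0.98). Fabp4 passed under no alternative, whereas Wfdc21 was called lower at day 6 with the compared groups alone (-0.32, adjusted p = 0.00355), with the replicate block (adjusted p = 0.00825) and under quantile normalisation (-0.68, adjusted p = 0.00745). Fosb, an AP-1 subunit, had -7.42, with 146 FPKM in 23-CATA and 0.28 FPKM in 23-Tet1 at day 0. Agt had -7.17, being higher in 23-CATA at day 0 (27.4 FPKM, against 2.34 FPKM in 23-Tet1) and lower at day 6 (155 FPKM, against 2552 FPKM in 23-Tet1).

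The largest rises had other courses. Rnaset2a, a ribonuclease gene with a near-identical copy whose own value is uncertain, had 5.86. Slurp1, a secreted epithelial peptide gene, had 4.30, with 0.25 FPKM in 23-CATA and 19.6 FPKM in 23-Tet1 at day 0, and it did not pass at day 6 (adjusted p = 0.44). The histone gene Hist1h3b had 4.09 and Gsta1 had 3.80. Chchd10 had 4.00, at 1.53 FPKM in 23-CATA and 0.31 FPKM in 23-Tet1 at day 0 and at 120 FPKM in 23-CATA and 2.97 FPKM in 23-Tet1 at day 6. Cdsn, an adhesion protein gene of the epidermis, had 3.75, with 53.5 FPKM in 23-CATA and 413 FPKM in 23-Tet1 at day 0. The epithelial markers summed to a median of 1.46 FPKM in 23-CATA, with at most 1.79 FPKM, and of 12.2 FPKM in 23-Tet1, with at most 12.7 FPKM, on that day, and their part in the values of Slurp1 and Cdsn was not tested.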

How the results depend on the processing

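The number of genes called at day 6 (8031) lay between 7943 and 9029 under the alternatives that keep every library, and between 7343 and 7641 with 1 library left out. The number called at 1 log2 unit or more (1134) was 1860 with a pseudocount of 0.1 FPKM, which by construction widens the differences of low genes, and 1092 to 1184 with 1 library left out. Under quantile normalisation 3 named genes turned in sign, Hmgcs1 to -0.0149 (adjusted p = 0.861), Insig1 to -0.1741 (adjusted p = 0.0128) and Hsd11b1 to -0.1306 (adjusted p = 0.0987), and the cause was not tested. Without 1 library, calls of the day 6 minus day 0 difference numbered 7557 to 7732, of day 0 7298 to 7428, of day 2 7740 to 7900 and of day 4 8637 to 8917. With the replicate number as a block, 8515 genes were called at day 6 and 8807 for the day 6 minus day 0 difference. The block was fitted in the compared groups alone, so these counts differ from the main fit in the libraries used as well. At day 6 the residuals of same-numbered libraries were correlated by 0.042, 0.014 and -0.036, and not every library was closest to its own number. Of 68 counts of list members called in 1 direction, 54 stayed within 1.5 times their value under every alternative run and 14 did not, each of 7 or fewer. Quantile normalisation gave 4 smooth muscle genes higher against 7, 1 cholesterol synthesis gene higher against 3, 4 fatty acid synthesis genes lower against 2 and 4 fatty acid oxidation genes lower against 1. A pseudocount of 0.1 FPKM gave 3 nuclear receptors higher against 5. With no filter on low values, 6 imprinted genes were higher against 3 and 8 WNT genes lower against 5. FPKM keeps no counts, so no counting interval can be given, and levels under 1 FPKM rest on few fragments. With 3 libraries a group, spread within a group is itself imprecise.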
